A study of Mus musculus with 6 samples.

Results

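Claudins and occludin are the membrane proteins that build tight junctions, and 10 genes of this group were followed here: Cldn1, Cldn3, Cldn4, Cldn5, Cldn7, Cldn8, Cldn10, Cldn11, Cldn12 and Ocln. They were chosen by name among genes with a probe set that the platform annotation gives to that gene alone, and each had 1 such probe set; 22180 genes were measured this way in all. The samples, 6 expression arrays in all, came from the mouse mammary gland. Wild-type replicates 1, 2 and 4, each from its own mouse, were YFP+ luminal cells sorted from Rosa26-Stop-YFP females 10 to 14 days after Ad-K8-Cre had been injected into the ducts. Tumors 23, 24 and 25 arose, some months after Ad-K8-Cre injection, in mammary glands of Trp53L/L;Brca1L/L females, and the labels name them Trp53/Brca1-null. Ad-K8-Cre is an adenovirus that makes Cre recombinase under the keratin 8 promoter, so recombination was aimed at K8+ luminal cells in both groups. The L/L alleles of the tumor group are absent from the wild-type group, whose reporter strain is not named for the tumors. The labels mention sorting for wild-type cells alone. The labels give no age, and they do not state that the tumors are from separate animals. If 2 of them share a mouse, the p-values rest partly on variation within it.

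Each claudin crosses the membrane 4 times, and its outer loops pair with those of the neighbouring cell to seal or to gate the space between epithelial cells. Occludin belongs to a second family of 4-pass proteins, the MARVEL proteins, and both kinds are anchored inside the cell by scaffold proteins of the ZO family. In the mammary gland these junctions separate milk from tissue fluid. Low levels of Cldn3, Cldn4 and Cldn7, together with low Cdh1 and high levels of mesenchymal genes, give the claudin-low class of breast tumor its name. No tumor was assigned to a class here, and no classifier was run.

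All values are log2 expression values, 1 per gene and array. Background was marked, array by array, at the 95th percentile of 1105 genes for olfactory receptors, which ran from 3.70 to 3.86 on the wild-type arrays and from 3.24 to 3.45 on the tumor arrays. Of the 10 genes, 9 lay above it on all 6 arrays, and Cldn5 fell under it on tumor 24 (3.33 against a mark of 3.45). Adjusted p-values come from limma, corrected by Benjamini and Hochberg's method across all 22180 genes, and 0.05 was the threshold.

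Ocln and Cldn1 fell in tumors, none of the 10 rose, and the other 8 did not pass the test. The 2 that fell stand beside a background of 1.39% of all genes called lower, 2.52% called higher and 3.91% called either way. At an unadjusted p under 0.05, 6 of the 10 were lower and 0 were higher, where 13.0% of all genes were lower and 13.4% higher. Mean levels were lower in tumors for 9 of 10, where 58.3% of all genes had a lower mean, and lower by at least 1 log2 unit for 5 of 10, where 3.81% of all genes did. For Cldn1, Cldn3, Cldn4, Cldn10, Cldn11 and Ocln every tumor lay below every wild-type array, 6 of 10 genes, and 22.4% of all genes showed this. The median difference of the 10 genes was -0.99, and that of all 22180 genes -0.12. In bulk samples such as these tumors, fewer cells of a type and less RNA per cell cannot be told apart. The count of genes that fell depended on the arrays: it was 0 without wild-type replicate 1, 2 or 4, 1 without tumor 23 or tumor 24, and 2 without tumor 25. It also depended on the scaling, and was 9 after centring on housekeeping genes, where 31.8% of all genes were called lower; the mean of the 13 measured housekeeping genes itself was 7.19 to 7.49 in wild-type cells and 7.59 to 8.29 in tumors. The count was 3 among genes with a mean of at least 5 (3.44% called lower), and 2 both after cyclic loess (1.49%) and after a repeated quantile normalization (1.56%).

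**Figure D1:**
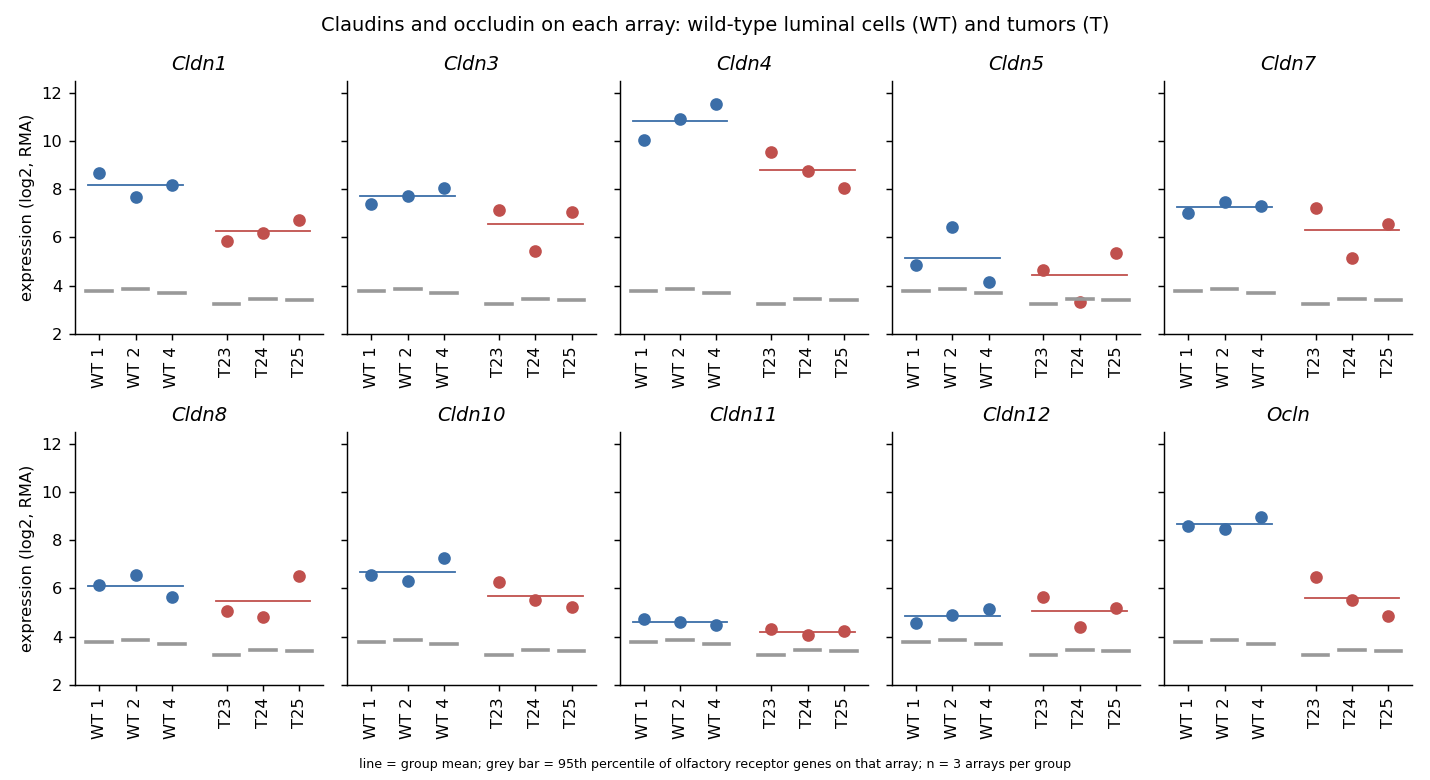
Log2 expression of each claudin and of Ocln on the 6 arrays, wild-type luminal cells in blue and tumors in red, with a line at each group's mean (n = 3) and a grey bar at the olfactory receptor mark of each array. Ocln lies between 8.47 and 8.97 in wild-type cells and between 4.86 and 6.47 in tumors, while the groups overlap for Cldn5, Cldn7, Cldn8 and Cldn12.

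Ocln, whose product occludin helps to regulate the barrier and lines the strands formed by claudins, showed the widest gap between the groups. It measured 8.57, 8.47 and 8.97 in wild-type replicates 1, 2 and 4, and 6.47, 5.52 and 4.86 in tumors 23, 24 and 25. The highest tumor thus lay 2.00 below the lowest wild-type array. Ocln fell by 3.06 ± 0.41 (SE), 8.33-fold, at an adjusted p of 0.021 in limma and with a 95% interval of the difference from -4.04 to -2.07. The tumors had an SD of 0.81 and the wild-type arrays one of 0.26 (n = 3). Without wild-type replicate 1, 2 or 4 the difference was -3.11, -3.16 or -2.91 with adjusted p of 0.072, 0.066 or 0.090, and without each tumor in turn it still passed.

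Cldn1, a claudin required for the barrier of the epidermis, also fell in the tumors. It measured 8.66, 7.67 and 8.19 in wild-type replicates 1, 2 and 4, and 5.86, 6.17 and 6.74 in tumors 23, 24 and 25. All tumors lay below all wild-type arrays, with 0.92 between the nearest pair, and tumor 25, the lowest for Ocln, was the highest tumor for Cldn1. Cldn1 fell by 1.91 ± 0.33 on the log2 scale (SE), or 3.76-fold, and its adjusted p in limma was 0.038. Cldn1 did not pass without wild-type replicate 1 (adjusted p 0.103), replicate 2 (0.065), replicate 4 (0.115), tumor 23 (0.091) or tumor 24 (0.056), with differences between -2.16 and -1.67.

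Cldn4, a sealing claudin and one of the receptors of Clostridium perfringens enterotoxin, differed by more than Cldn1 and varied more within groups. It measured 10.04, 10.93 and 11.55 in wild-type replicates 1, 2 and 4, and 9.55, 8.78 and 8.04 in tumors 23, 24 and 25. The groups did not overlap, and the nearest pair was 0.49 apart. The difference was -2.05 ± 0.50 (SE), with a 95% interval from -3.26 to -0.84, and the adjusted p of 0.076 in limma missed the threshold. It passed when only genes with a mean of at least 5 were tested (adjusted p 0.026), and after centring on housekeeping genes (0.0042).

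Cldn3, the other claudin that binds this enterotoxin, measured 7.40, 7.74 and 8.07 in wild-type replicates 1, 2 and 4, and 7.14, 5.45 and 7.04 in tumors 23, 24 and 25. Tumors 23 and 25 lay just below the lowest wild-type array, and tumor 24 lay far below both. The difference was -1.19 ± 0.48 (SE; adjusted p 0.178 in limma), and -0.65 without tumor 24.

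Cldn7, a claudin found along the lateral membrane as well as in junctions, showed the same split among tumors. It measured 7.01, 7.49 and 7.30 in wild-type replicates 1, 2 and 4, and 7.24, 5.13 and 6.55 in tumors 23, 24 and 25. Tumor 23 lay within the wild-type range, and tumor 24 minus the wild-type mean was -2.14. The SD was 1.08 in tumors against 0.24 in wild-type cells (n = 3). The difference was -0.96 ± 0.52 (SE), with a 95% interval from -2.21 to 0.28 and an adjusted p of 0.275 in limma, and it was -0.37 without tumor 24.

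Promoter sequences are shown for those of Ocln, Cldn1, Cldn4, Cldn3 and Cldn7 whose RefSeq window holds an E-box, the hexamer CANNTG, since its form CAGGTG (or CACCTG, read from the opposite strand) is the site that the repressors of the Snail and Zeb families bind. RefSeq windows of assembly GRCm38.p6 were matched for 9 of the 10 genes, 14 windows over all annotated starts, and the 250 bases before each start were searched on both strands. CANNTG reads the same way on both strands, and each match to the narrower motif, searched in both of its readings, is counted among its matches too. CAGGTG stood in the windows of Ocln, Cldn4 and Cldn7, 3 of the 14, and in 17.2% of all 32851 promoter windows; CANNTG stood in 6 of the 14 and in 66.2% of all. In the lines that follow, capitals mark CANNTG. Cldn4 (chr5:134946935-134947184, minus strand) and Cldn1 (chr16:26371840-26372089, minus strand) are given as whole windows. For Ocln and Cldn7, 30 bases around each CAGGTG before the second annotated start are given (chr13:100552694-100552723 and chr13:100552549-100552578, minus strand; chr11:69965312-69965341 and chr11:69965352-69965381, plus strand).
Cldn4: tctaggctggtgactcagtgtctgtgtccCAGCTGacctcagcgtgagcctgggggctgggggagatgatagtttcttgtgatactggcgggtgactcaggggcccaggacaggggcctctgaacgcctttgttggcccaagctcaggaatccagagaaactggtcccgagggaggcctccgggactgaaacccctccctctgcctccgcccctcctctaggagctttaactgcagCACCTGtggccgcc
Cldn1: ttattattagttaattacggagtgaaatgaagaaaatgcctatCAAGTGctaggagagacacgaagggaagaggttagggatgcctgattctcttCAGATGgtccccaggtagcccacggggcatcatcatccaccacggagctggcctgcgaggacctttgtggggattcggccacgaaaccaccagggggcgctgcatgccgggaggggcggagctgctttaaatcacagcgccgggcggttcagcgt
Ocln, first site: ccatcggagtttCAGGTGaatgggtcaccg
Ocln, second site: ctaggggctcggCAGGTGggtcccagcgca
Cldn7, first site: tttcttcctcttCACCTGgacgaggagggg
Cldn7, second site: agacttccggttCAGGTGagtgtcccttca
The Cldn4 site began 14 bases before the start, the Ocln sites 213 and 68 bases before it and the Cldn7 sites 97 and 57 bases before it. Cldn1, which fell, held 2 E-boxes of other forms and no CAGGTG in this window, and Cldn3 held no E-box in its window. These are matches of letters, and no binding was measured.

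Among Snai1, Snai2, Zeb1, Twist1 and Twist2, of families whose products repress junction genes, none passed the test as fitted to all genes and arrays. Other genes of the Snail, Zeb and Twist families are not described here. Snai1 measured 3.07, 3.05 and 3.22 in wild-type replicates 1, 2 and 4, under the background mark, and 3.36, 3.19 and 4.91 in tumors 23, 24 and 25. It was thus high in tumor 25 alone. Snai2 was highest in tumor 24 at 7.17. It measured 4.07 and 4.96 in tumors 23 and 25, where wild-type cells had 3.79 to 5.72. Its difference of 0.34 ± 0.89 (SE) turned to -0.55 without tumor 24 and to -0.30 without wild-type replicate 2. Zeb1 measured 5.36, 4.83 and 3.87 in tumors 23, 24 and 25 and 3.60 to 4.19 in wild-type cells. The tumor with the highest value differed from gene to gene. It was tumor 25 for Snai1 and Twist1, tumor 24 for Snai2, and tumor 23 for Zeb1 and for Twist2, which lay under the background mark. A link between these genes and the claudin or occludin values was not tested. Twist1 was 3.05 ± 0.64 (SE) higher, with an adjusted p of 0.056 in limma, and lay above every wild-type array in all 3 tumors, at 7.26, 5.90 and 8.66 against 4.12 to 4.43, lowest in tumor 24. It passed without tumor 24 (adjusted p 0.019), among genes with a mean of at least 5 (0.011), with a trended robust prior (0.034), and after centring on housekeeping genes (0.0084) or on Epcam and Cdh1 (3.61e-09). The last of these moved the median of all genes to 0.69. Twist1 did not pass without any 1 wild-type array, tumor 23 or tumor 25 (adjusted p 0.066 to 0.146). Nor did it pass after cyclic loess (0.060) or quantile normalization again (0.069), or with probe sets averaged (0.057) or tested singly (0.058).

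**Figure D2:**
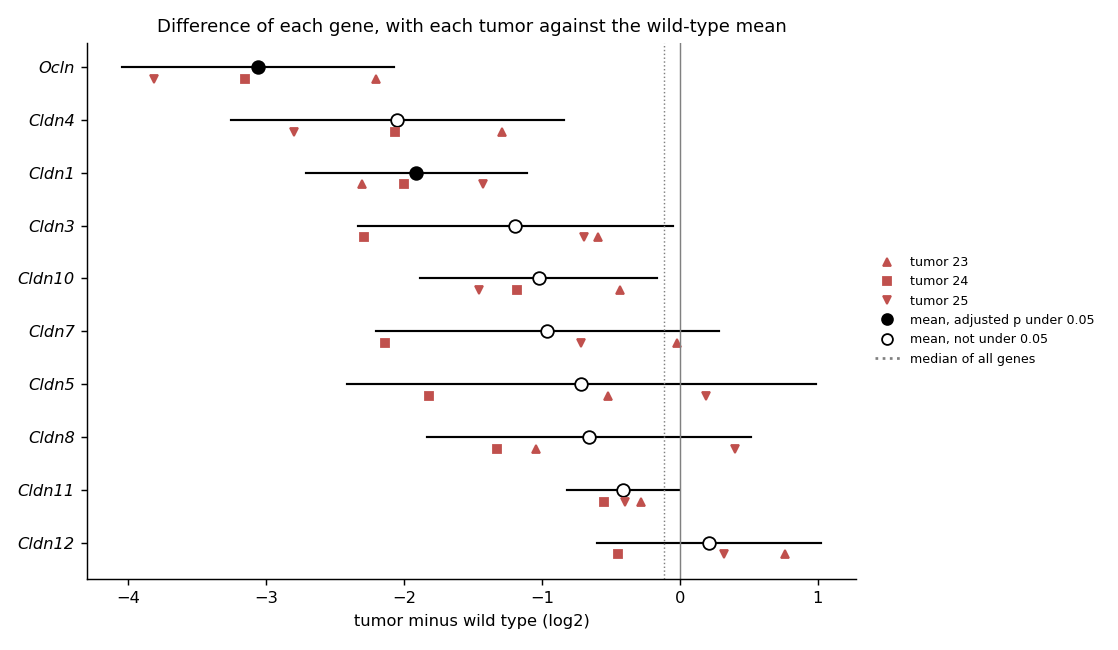
Tumor minus wild type for each gene on the log2 scale. Circles are the mean differences (filled where the adjusted p in limma was under 0.05), lines their 95% intervals without adjustment for the number of genes, red symbols each tumor minus the wild-type mean, and the dotted line the median of all genes (-0.12); Ocln and Cldn1 are the filled circles at -3.06 and -1.91.

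Cldn10, which forms channels for ions, measured 6.56, 6.30 and 7.25 in wild-type replicates 1, 2 and 4, and 6.27, 5.52 and 5.24 in tumors 23, 24 and 25. The groups were separated by 0.03 alone, between wild-type replicate 2 and tumor 23. The difference was -1.02 ± 0.36 (SE; adjusted p 0.144 in limma). Cldn8, a claudin of tight epithelia such as the distal nephron, measured 6.16, 6.57 and 5.64 in wild-type cells, and 5.08, 4.79 and 6.52 in tumors 23, 24 and 25. Tumor 25 lay at the level of the highest wild-type array and the other tumors below all of them, so that the difference of -0.66 ± 0.49 (SE) did not pass (adjusted p 0.400 in limma); it was -0.32 without tumor 24 and -1.19 without tumor 25.

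Cldn12, an atypical claudin without the tail motif that binds ZO proteins, was the only one of the 10 with a higher mean in tumors. It measured 4.57, 4.88 and 5.13 in wild-type replicates 1, 2 and 4, and 5.62, 4.42 and 5.18 in tumors 23, 24 and 25. The groups overlapped, and tumor 24 was the lowest array of all. The difference of 0.21 ± 0.34 (SE) had an adjusted p of 0.686 in limma and a 95% interval from -0.60 to 1.02, and its sign turned without tumor 23 (-0.06) and after housekeeping centring (-0.47).

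Cldn5, the main claudin of endothelial cells, measured 4.86, 6.42 and 4.16 in wild-type replicates 1, 2 and 4, and 4.63, 3.33 and 5.34 in tumors 23, 24 and 25. The groups overlapped, with wild-type replicate 2 highest and tumor 25 next. The difference was -0.71 ± 0.71 (SE; adjusted p 0.519 in limma), with a 95% interval from -2.42 to 0.99; it was -0.08 without wild-type replicate 2, -0.16 without tumor 24, -1.21 without wild-type replicate 4 and -1.17 without tumor 25. Of 13 endothelial markers, 2 had the same 3 arrays on top as Cldn5, and they are given for that reason. The adhesion gene Pecam1 stood at 7.10 in wild-type replicate 2, 6.69 in tumor 25 and 6.39 in wild-type replicate 1, against 5.58 to 5.71 in the rest. Cdh5, the cadherin of endothelial cells, measured 7.42 in tumor 25, 7.34 in wild-type replicate 2 and 7.22 in wild-type replicate 1, and 5.42 to 5.98 in the rest. The other 11 had other arrays on top. Vwf, the von Willebrand factor gene, was the 1 marker of the 13 called lower (4.40 to 4.60 in tumors and 5.46 to 5.55 in wild-type cells; adjusted p 0.028 in limma), a call lost without each array except tumor 24 (adjusted p 0.074 to 0.099), with a trended robust prior (0.068) and after Epcam and Cdh1 centring (0.708). Of the 13 markers, 9 lay above the background mark on all 6 arrays, and the list mean ran from 4.34 to 4.87 in wild-type cells and from 4.18 to 5.11 in tumors. Endothelial transcripts were therefore measured in the sorted luminal samples too, and their part in the Cldn5 values was not tested.

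Cldn11, the claudin of myelin and of the testis barrier, measured 4.74, 4.61 and 4.49 in wild-type replicates 1, 2 and 4, and 4.33, 4.06 and 4.22 in tumors 23, 24 and 25. These are low levels, and the groups, although separate, were 0.16 apart. The difference was -0.41 ± 0.17 (SE, adjusted p 0.187 in limma). Cldn11 is among the 6 genes lower at an unadjusted p under 0.05 and among the 6 without overlap. The background mark was also lower in tumors, at 3.24 to 3.45 against 3.70 to 3.86 on wild-type arrays. The part of that shift in the Cldn11 difference was not tested. Of 6 measured markers of myelinating glia, 3 lay above the mark on all 6 arrays. Among them Sox10, a neural crest factor that mammary epithelium also makes, measured 7.53, 6.12 and 8.31 in tumors 23, 24 and 25 and 5.01 to 5.78 in wild-type cells, and did not pass (adjusted p 0.108 in limma). Mbp, the myelin basic protein gene, measured 4.24, 4.31 and 3.60 in these tumors and 5.11 to 5.51 in wild-type cells (adjusted p 0.0503). The list mean ran from 4.46 to 4.76 in wild-type cells and from 4.29 to 4.67 in tumors, and the part of such transcripts in the Cldn11 values was not tested.

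The tumors ranked differently for different genes. Tumor 24 was the lowest tumor for 6 of the 10 genes (Cldn3, Cldn5, Cldn7, Cldn8, Cldn11 and Cldn12) and the highest for 0, tumor 25 the lowest for 3 (Cldn4, Cldn10 and Ocln), and tumor 23 the lowest for Cldn1 and the highest for 7. Taken tumor by tumor against the mean of the wild-type arrays, the 10 genes had median differences of -0.56 (tumor 23), -1.91 (tumor 24) and -0.71 (tumor 25). The same median over all genes lay between -0.14 and -0.11 in the 3 tumors.

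Likeness between genes was measured as the root mean square difference, in log2 units over the 6 arrays, after each gene was centred on its own mean, with 22179 other genes ranked for each. Genes were not scaled, so this distance depends on the size of their changes as well as on their pattern. Cldn12, with a higher mean in tumors, was thus nearer to Cldn3 (0.74) than Cldn1 was (0.80). Cldn3 and Cldn7 were 0.26 apart: Cldn7 ranked 9 for Cldn3, and Cldn3 ranked 7 for Cldn7. The genes nearest to Cldn3 were Phyh (0.08), a peroxisomal enzyme that breaks down phytanic acid, the membrane serine protease gene St14 (0.13) and the helicase gene Ddx28 (0.18). Nearest to Cldn7 were S100a13 (0.16), Tom1l1 (0.22) and the actin nucleator gene Cobl (0.23). All 6 of these genes shared the drop in tumor 24, with S100a13 for example at 5.65 there and between 6.61 and 7.64 on the other arrays. They were picked for likeness on these same arrays, so the shared drop follows from the choice.

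Cldn4 stood nearer to Ocln (0.62) than to Cldn3 (0.84) or Cldn7 (0.91), although Cldn3 is the next protein-coding gene to Cldn4 on chromosome 5 of GRCm38.p6. Nearest to Cldn4 were the receptor gene Gprc5a (0.21), the secreted glutathione peroxidase gene Gpx3 (0.23) and Bcl2l14 (0.26). Ocln had Angptl4 (0.23), an inhibitor of lipoprotein lipase, Apof (0.30) and the glutamine synthetase gene Glul (0.34) nearest. Cldn4 ranked 47 for Ocln, and Ocln ranked 149 for Cldn4. These 6 nearest genes all had tumor 23 as the highest tumor and tumor 25 as the lowest, as Cldn4 and Ocln did, which again follows from how they were picked. Angptl4 for example measured 5.62, 5.06 and 4.50 in tumors 23, 24 and 25 and 7.77 to 8.06 in wild-type cells.

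**Figure D3:**
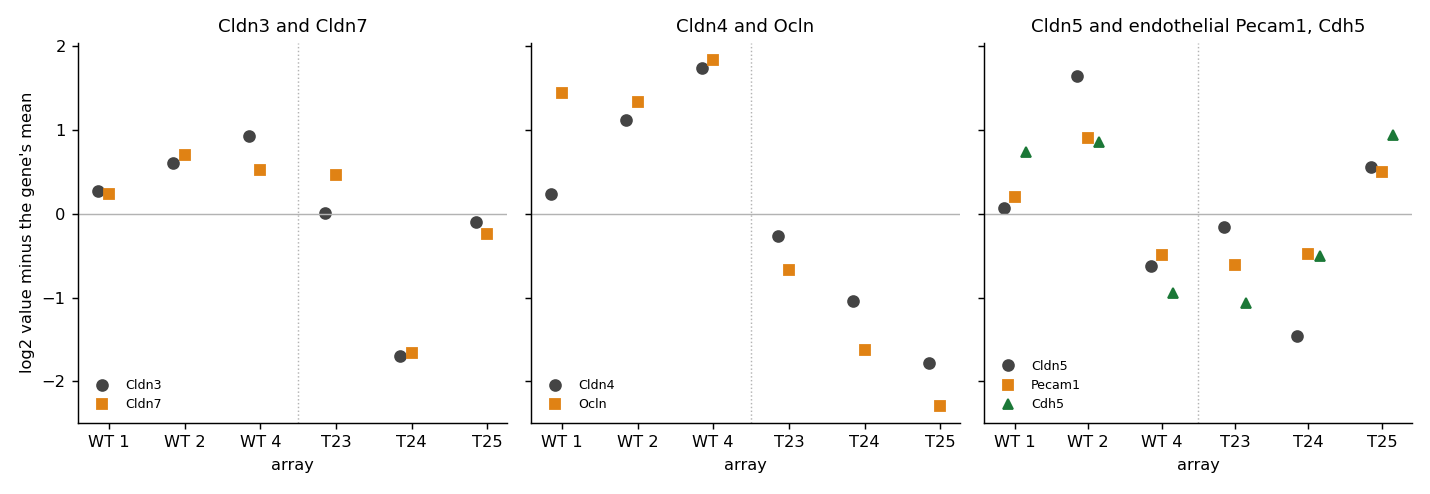
Log2 values minus each gene's own mean over the 6 arrays, for Cldn3 with Cldn7, Cldn4 with Ocln, and Cldn5 with the endothelial genes Pecam1 and Cdh5; arrays are on the x axis, wild type left of the dotted line. Cldn3 and Cldn7 are lowest in tumor 24 (5.45 and 5.13 before centring), Cldn4 and Ocln are lowest in tumor 25 (8.04 and 4.86), and Cldn5 is highest in wild-type replicate 2 (6.42).

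Marker lists of some cell types had means that differed between the groups, and those of others had overlapping ranges. Markers of luminal epithelium (9 measured, 7 above the mark on all arrays) had a mean of 8.25 to 8.77 on wild-type arrays and 6.78 to 7.78 on tumor arrays, lowest in tumor 24. Of these 9, 2 fell and 1 rose in limma, where 1.39% of all genes were called lower and 2.52% higher. With single arrays left out, 0 to 2 fell and 0 to 1 rose. Within that list Krt8 measured 9.41, 7.76 and 9.19 in tumors 23, 24 and 25 and stood at 10.31 to 11.12 in wild-type cells, the same order of all 6 arrays as Cldn3. The adhesion genes Epcam and Cdh1 were lower by 0.80 ± 0.31 and 0.82 ± 0.35 (SE; adjusted p 0.170 and 0.193 in limma). Macrophage markers (10 measured) had a mean of 6.09 to 6.98 in tumors and 3.86 to 4.57 in wild-type cells, with 10 above the mark in all tumors and 5 above it on all wild-type arrays; 6 of the 10 rose, 2 without wild-type replicate 1 or tumor 23 and 3 without wild-type replicate 2 or 4. Fibroblast markers ran from 6.27 to 7.36 in tumors, highest in tumor 24, and from 5.53 to 5.97 in wild-type cells, and skeletal muscle markers from 3.78 in tumor 24 to 9.10 in tumor 23 against 3.59 to 3.75. Basal markers (9 measured) ran from 5.68 to 6.92 in tumors, highest in tumor 24, and from 5.94 to 6.32 in wild-type cells. Of these 9, 1 fell and 0 rose, a call lost without each array except tumor 24. Means of the T cell (3.46 to 3.95), adipocyte (3.51 to 3.72) and keratinocyte (2.66 to 3.87) lists in tumors lay near the mark, and in wild-type cells they were 3.64 to 4.21, 4.29 to 4.76 and 3.43 to 3.73. These means hide brighter members. Fabp4 of the adipocyte list measured 10.75, 10.84 and 8.61 in wild-type replicates 1, 2 and 4, and 6.30 to 8.22 in tumors. Sprr1a of the keratinocyte list measured 7.46 to 8.99 in wild-type cells and 2.36 to 7.29 in tumors. Neither passed limma (adjusted p 0.082 and 0.128). Of the 7 measured adipocyte markers 1 fell, and 0 did without wild-type replicate 4 or tumor 23. In the skeletal muscle, T cell and keratinocyte lists 0 fell and 0 rose with all arrays. Of the 10 fibroblast genes, 9 had higher means in tumors and 2 of them rose, a count of 0 without any 1 wild-type array or tumor 25 and of 1 without tumor 23 or 24. The remaining gene, Dcn, which encodes decorin, was the exception and is named for it: it stood at 10.10 to 11.11 in the sorted wild-type samples and at 7.11 to 9.16 in tumors (adjusted p 0.052 in limma). The part of cell makeup in the lower claudin values was not tested.

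Centring on Epcam and Cdh1 subtracts the same value from every gene on an array. The difference of every gene therefore shifted by the same amount, and the spacing between genes stayed as it was without centring. With each array centred on the mean of these 2 pan-epithelial genes, an alternative chosen after seeing the data, the difference was -2.25 for Ocln. It was -1.24 for Cldn4, -1.10 for Cldn1, -0.38 for Cldn3, -0.21 for Cldn10 and -0.15 for Cldn7. Both reference genes had lower means in tumors before centring (-0.80 for Epcam and -0.82 for Cdh1), and low Cdh1 is part of the claudin-low class. By construction, the centring thus takes out part of the trait described here. Cldn5 (0.09), Cldn8 (0.15), Cldn11 (0.40) and Cldn12 (1.02) then had higher values in tumors. This centring moved the median of all genes from -0.12 to 0.69. Ocln and Cldn4 passed limma under it (adjusted p of 8.61e-05 and 0.030), where 0.852% of all genes were called lower, and Cldn1 did not (0.064).

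The genes listed for the claudin-low class differed, on average, in the direction of that class, and few passed the test. It is a class among breast tumors, while here tumors were set against sorted wild-type luminal cells. No other tumors were there for comparison, so these differences do not place a tumor in the class. Of 11 measured genes that are low in that class (4 of them members of the group described here), all 11 had lower means in tumors and 2 fell, Ocln and Cd24a, a surface glycoprotein. Of all genes, 58.3% had a lower mean and 1.39% were called lower. Without the 4 members, all 7 had lower means and 1 fell. The median difference of the 11 was -1.80. Cd24a measured 10.54, 9.95 and 11.15 in wild-type replicates 1, 2 and 4, and 8.94, 8.53 and 8.76 in tumors 23, 24 and 25. The groups were clearly apart, and Cd24a fell by 1.80 ± 0.32 (SE; adjusted p 0.039 in limma). Averaged over its probe sets, the difference was -2.44. It lost its call without wild-type replicate 1 or 4 and without tumor 23, 24 or 25 (adjusted p of 0.113, 0.094, 0.084, 0.059 and 0.094). Krt19, a simple epithelial keratin, measured 5.91, 4.83 and 2.05 in tumors and 9.08 and 8.78 in wild-type replicates 2 and 4, with replicate 1 below these but above every tumor; it was 4.36 ± 0.94 lower (SE, adjusted p 0.059). Its value in tumor 25 lay under the background mark. Krt8, Krt18 and the mucin gene Muc1 were lower by 2.05, 2.09 and 1.33 without passing. Of the 7 genes that are not claudins or occludin, tumor 24 was the lowest for 5 and tumor 25 for 2, and tumor 23 was the highest for 6.

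Of 11 measured genes that are high in the class, all 11 had higher means in tumors, and Fn1, which encodes the matrix protein fibronectin, was the 1 that rose. Of all 22180 genes, 9247 had a higher mean and 2.52% were called higher. The median difference of the 11 was 0.79. Fn1 measured 7.17, 8.03 and 6.53 in wild-type replicates 1, 2 and 4, and 10.04, 10.17 and 11.71 in tumors 23, 24 and 25, higher by 3.39 ± 0.56 (SE) at an adjusted p of 0.033 in limma. It lost its call without wild-type replicate 1, 2 or 4 and without tumor 23 or 25 (adjusted p of 0.104, 0.065, 0.106, 0.066 and 0.0503). Vim (1.15), Sparc (1.29) and Twist1 were above all wild-type arrays in all 3 tumors without passing. Averaged over its probe sets, the difference of Vim was 0.38 and that of Cdh2 0.10. Cdh11 (1.24), Zeb1 (0.79), Snai1 (0.71), Cdh2 (0.53), Snai2 (0.34), Cd44 (0.16) and Twist2 (0.16) had overlapping groups. The signs of Cdh2, Snai2, Cd44 and Twist2 turned after housekeeping centring, and that of Cd44 also after quantile normalization again and cyclic loess. Twist2 lay under the mark on all 6 arrays. The class is named for Cldn3, Cldn4 and Cldn7, and none of these 3 passed.

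**Figure D4:**
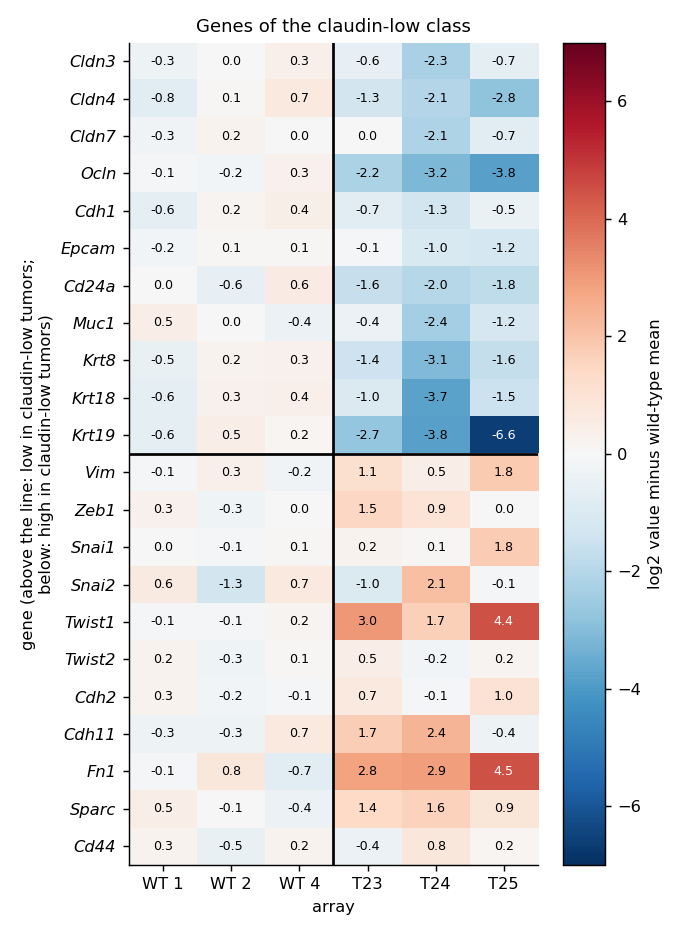
Log2 value minus the wild-type mean on each array (columns) for the measured genes that are low (above the line) or high (below it) in claudin-low tumors, blue for lower and red for higher. Tumor 24 has Cldn3 and Cldn7 at -2.29 and -2.14 and tumor 25 has Ocln at -3.82, while Cldn7 in tumor 23 is at the wild-type mean (-0.02).

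Among the partners of claudins and occludin in the junction, 1 difference passed. Of 40 listed scaffold, adhesion, polarity and signalling genes, 36 were measured; 0 fell and 1 rose in limma, and at an unadjusted p under 0.05, 7 were lower and 7 higher (13.0% and 13.4% of all genes). The gene that rose was Mpdz, whose product MUPP1 is a scaffold with many PDZ domains that binds claudin tails. It measured 3.83, 3.74 and 3.88 in wild-type replicates 1, 2 and 4 and 4.87, 4.86 and 5.21 in tumors 23, 24 and 25. The groups were well separated, with the wild-type values around the background mark, and the rise was 1.16 ± 0.18 (SE; adjusted p 0.027 in limma). Mpdz lost its call without wild-type replicate 1, 2 or 4 and without tumor 23 or 25 (adjusted p of 0.088, 0.079, 0.093, 0.068 and 0.066), and the count of partners that rose was then 0; it was 3 without tumor 24, and 0 again after housekeeping centring. The median of the 36 differences was -0.19, near the -0.12 of all genes.

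Marveld2, which encodes tricellulin, the MARVEL protein of the corners where 3 cells meet, had the largest lower value among the partners and is the protein-coding gene next to Ocln. It measured 7.89, 7.33 and 8.79 in wild-type replicates 1, 2 and 4, and 6.85, 5.66 and 5.80 in tumors 23, 24 and 25. The groups did not overlap, and the difference of -1.90 ± 0.47 (SE) had an adjusted p of 0.077 in limma. Lsr, an angulin that brings tricellulin to those corners, was chosen after its values were seen. It measured 9.38, 9.35 and 9.70 in wild-type cells and 8.59, 7.53 and 8.55 in tumors 23, 24 and 25, which gave -1.25 ± 0.32 (SE, adjusted p 0.083) between the groups. Crb3, a polarity protein of the apical membrane, was 1.39 lower (adjusted p 0.138), with tumor 23 inside the wild-type range. Cgnl1, which encodes paracingulin, was 1.19 ± 0.32 higher (SE, adjusted p 0.089). Tjp1, which encodes the scaffold ZO-1 and was also chosen after its values were seen, was 0.72 ± 0.27 lower (SE, adjusted p 0.160).

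**Figure D5:**
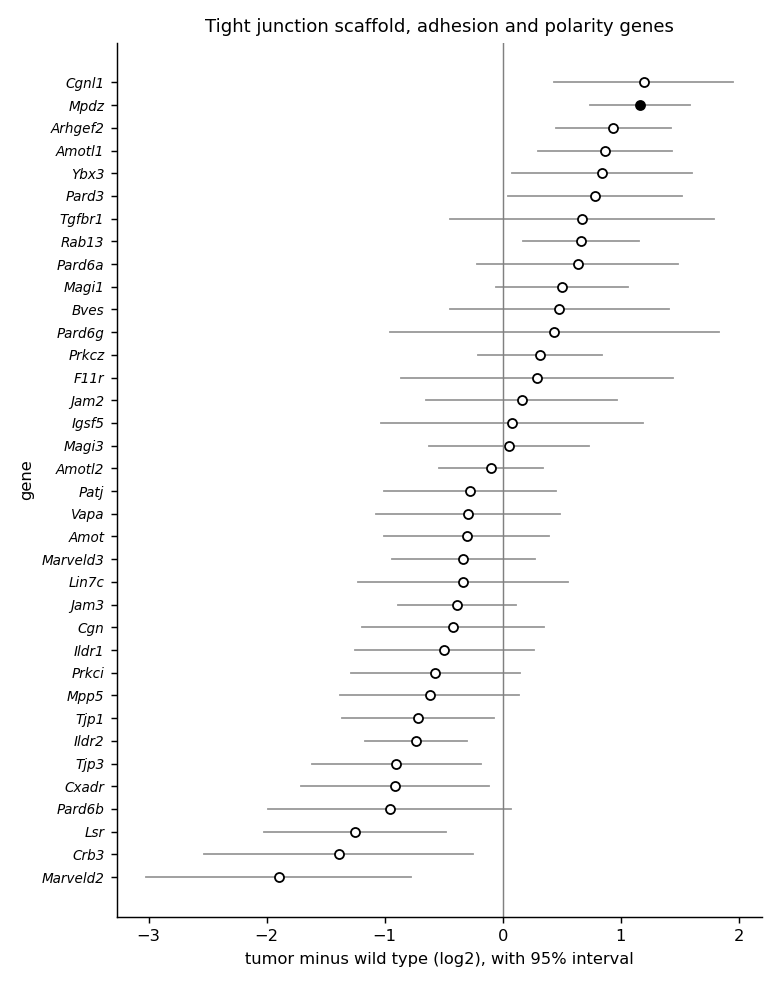
Tumor minus wild type on the log2 scale with 95% intervals (without adjustment for the number of genes) for the 36 measured partner genes, filled where the adjusted p in limma was under 0.05. Mpdz (1.16) is the filled circle, and Marveld2 (-1.90), Crb3 (-1.39) and Lsr (-1.25) stand at the lower end.

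Of 18 regulators and markers of epithelial differentiation, 1 fell and 1 rose, where 1.39% of all genes were called lower and 2.52% higher. Klf5, a Krüppel-like factor of proliferating epithelium, measured 9.29, 9.34 and 10.01 in wild-type replicates 1, 2 and 4, and 6.66, 6.88 and 6.16 in tumors 23, 24 and 25. The groups were far apart, and Klf5 fell by 2.98 ± 0.29 (SE; adjusted p 0.012 in limma), and it passed without each array in turn. Elf5, which drives alveolar differentiation, was 1.90 ± 0.28 higher (SE, adjusted p 0.026 in limma), going from wild-type values of 3.40 to 3.70 under the mark to 5.01 to 6.01. It lost its call without wild-type replicate 1, 2 or 4 and without tumor 23 or 25 (adjusted p of 0.081, 0.082, 0.098, 0.052 and 0.061). The other 16 did not pass. Of the remaining claudin family and close relatives, 25 of 30 listed genes were measured. In limma 0 of them fell and 0 rose, with 3 lower and 0 higher at an unadjusted p under 0.05, where 13.0% of all genes were lower, and 17 lay under the background mark on all 6 arrays.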

How the data were processed

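The authors deposited log2 values, 1 per array for each probe set, made with RMA in oligo (versions not given) as the submitters' processing notes name them, from RNA amplified and labelled with the NuGEN Ovation system per the labels. RMA is meant to make the arrays' distributions alike, and it compresses differences near background. The deposited values were not fully alike. Quantile normalization again moved the median of all genes from -0.12 to -0.01, and the background mark was lower on every tumor array than on every wild-type array. Precision is limited by the number of arrays. No scanner files or scan dates were used, so no batch could be tested. Of 41345 probe sets, 23521 named 1 gene, 1814 several and 16010 none in the platform annotation; 23328 were matched by Entrez identifier to RefSeq symbols of GRCm38.p6. No column was unmapped. For each of 22180 genes the probe set with the highest mean was used.

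The 2 groups were compared in limma 3.58.1 (R 4.3.3; lmFit and eBayes, no covariates, no filter on dim genes, two-sided). Intervals are 95% and unadjusted. The step was tested on simulated data of 22180 genes, of which 200 were changed: it recovered 6% of changes of 1 log2 unit, 62% of 2, 86% of 3 and 84% of 4, with 0.833% of 120 calls false. Of the 10 genes, 7 passed a filter at a mean of 5.

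Every member is named; of the other claudins, junction partners and epithelial regulators, each gene that passed limma, or the 2 largest differences either way where fewer than 2 passed; every gene of the claudin-low lists; up to 3 genes of each marker list; and for 4 members the 3 nearest genes. The members and lists were chosen with earlier results of these data known. Alternatives were a filter at a mean of 5, averaging all probe sets of a gene, testing each singly, a repeated quantile normalization, cyclic loess, housekeeping centring, a trended robust prior, each array left out in turn, and, added after seeing the data, centring on Epcam and Cdh1.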

Additional observations from a re-analysis of the deposited data

How the results depend on the processing

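The direction of Ocln, Cldn1, Cldn3, Cldn4, Cldn7 and Cldn10 was the same under all 14 alternatives. Ocln ranged from -3.74 to -2.25 and passed under all 8 that kept every array, and Cldn1 from -2.59 to -1.10, passing under 7 of them. The number of the 10 genes that fell (2) was 9 after housekeeping centring and 0 to 2 over the leave-one-out sets, and the number that rose was 0 throughout. Of the junction partners, 0 fell, but 1 did with a filter at a mean of 5, after cyclic loess and with a trended robust prior, and 14 after housekeeping centring. The 1 that rose, Mpdz, had a mean of 3.82 in wild-type cells and 4.98 in tumors. The filter at a mean of 5 left Mpdz out, and the count became 0. The count was also 0 after housekeeping centring, 12 with Epcam and Cdh1 centring, and 0 to 3 when single arrays were left out. Either centring shifts the differences of all genes by the same amount. The cause of the other changes in count was not tested. The median of all genes, -0.12, became -0.80 with housekeeping centring, 0.69 with Epcam and Cdh1 centring, -0.01 with quantile normalization again and 0.03 with cyclic loess, so signs near 0 follow the scaling. Signs turned with Epcam and Cdh1 centring for Cldn5 (0.095), Cldn8 (0.15) and Cldn11 (0.40). With housekeeping centring they turned for Cldn12 (-0.47), Snai2 (-0.34), Twist2 (-0.52), Cdh2 (-0.15) and Cd44 (-0.52), and for Cd44 also after quantile normalization again (-0.053) and cyclic loess (-0.045). Over the leave-one-out sets Cldn12 ranged from -0.063 to 0.54, Snai2 from -0.55 to 1.00, Twist2 from -0.0012 to 0.34 and Cd44 from -0.14 to 0.46. No paired analysis was possible because the groups share no replicate numbers. With 3 arrays per group, differences of 1 log2 unit were mostly not recovered in simulated data, and genes near the background mark, such as Cldn5 and Cldn11, have compressed differences.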

Other observations

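Some claudins outside the 10 genes varied between single arrays more than between groups. Cldn6, a claudin of embryonic epithelium, measured 6.56, 3.45 and 2.36 in tumors 23, 24 and 25, while wild-type cells had 5.42 to 5.81. Tumor 23 thus lay above all wild-type arrays and the other tumors below them, at the background mark in tumor 24 and under it in tumor 25. The difference of -1.46 ± 1.00 (SE) had an adjusted p of 0.364 in limma. Cldn9 was highest in tumor 25 (5.19) and tumor 23 (4.41), and lay under the mark in tumor 24 (3.25) and on all wild-type arrays (3.10 to 3.54), with a difference of 0.93 ± 0.48 (SE, adjusted p 0.257). Cldn20 stood at 6.85 in wild-type replicate 2 alone and between 3.06 and 4.37 on the other arrays (difference -1.44 ± 0.82, SE, adjusted p 0.292).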
